A study of Danio rerio with 6 samples.

Results

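The genes described here charge transfer RNAs with amino acids or start and extend protein chains on the ribosome. They were found in the authors' 3 deposited comparison tables, as probe sets (sets of short probes that together measure a transcript on the array) assigned to 1 gene whose description names a tRNA synthetase, whose current symbol begins with eif or eef, or which is eprs1 or rars1. The rule gave 32 probe sets of 30 genes, out of 3140 probe sets in the tables and 15502 on the array besides controls. They fall into 12 probe sets of 12 tRNA synthetase genes, 18 probe sets of 17 initiation factor genes and 2 probe sets of 1 elongation factor gene. A further 5 matching probe sets are assigned to several genes each and were left out.

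The tables list only probe sets that differ at least 2-fold between groups, so the members were chosen by the differences themselves. 27 are in both tables of ERbeta2 MO embryos, 2 only in that against coMO, 3 only in that against uninjected embryos, and 0 in the table of uninjected against coMO. Values of ERbeta2 MO against either control are therefore given as a description. The counts of limma calls in those contrasts are printed beside the share among all probe sets, with no p, and nothing is read from them. The comparison of the 2 control groups is tested, though the signals of both also entered the folds that chose the members.

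RNA came from whole zebrafish embryos at 72 h after fertilization, raised at 28 °C from eggs that were pooled from several aquaria and injected up to the 4-cell stage. ERbeta2 MO embryos received 50 uM of a morpholino, an antisense oligonucleotide that blocks translation of the estrogen receptor ERbeta2 and leaves its mRNA in place. coMO embryos received a standard control morpholino at 50 uM, and uninjected embryos received none. The titles of the uninjected arrays also carry 50 uM, which was taken to name the experiment and not a dose. No genotype or strain is named in the labels. Each group has 2 Affymetrix arrays, titled as biological replicates. The labels do not tell whether separate spawnings were used, so the p-values describe only how much these samples vary, which may be technical. Because whole embryos were measured, fewer cells of a type and less RNA per cell cannot be told apart.

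Each tRNA synthetase joins 1 amino acid to its tRNAs, and the enzymes belong to 2 unrelated structural classes, class I and class II. In vertebrate cells several cytosolic synthetases are held with scaffold proteins in a multisynthetase complex, and mitochondria use a set that is mostly their own. Initiation factors bring the initiator tRNA, the mRNA cap and the small ribosomal subunit together at the start codon, and the exchange factor eIF2B, which recharges eIF2 with GTP, is the point at which stress kinases slow the whole process. Elongation factors then deliver charged tRNAs and move the ribosome along.

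Of the 30 synthetase and initiation factor probe sets, 29 were brighter on both ERbeta2 MO arrays than on any of the 4 control arrays, while that of eif4e3 and both of eef2l2 were dimmer. Among all probe sets tested, the ERbeta2 MO arrays did not overlap those of coMO for 78.7%, nor those of uninjected embryos for 78.9%. The members were chosen by their differences, so nothing is read from this count. Against coMO the 12 synthetases stood 0.58 to 2.09 higher on the log2 scale, at a median of 1.16, and the 18 initiation factor probe sets ranged from -1.22 to 1.80, at a median of 1.10. Against uninjected embryos the medians were 1.29 and 1.21. The median over all 9302 probe sets tested was 0.05 in each of these comparisons. All differences are of log2(signal + 16), which understates changes of dim probe sets, and the signals are MAS5 values on a linear scale.

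Among the synthetases the alpha subunit of phenylalanyl-tRNA synthetase, farsla, a class II enzyme, differed most from coMO. Its signal was 2709 and 3013 on the ERbeta2 MO arrays, 727 and 595 on the coMO arrays and 720 and 746 on the uninjected arrays. The control arrays overlapped each other and lay far below both ERbeta2 MO arrays, with a difference from coMO of 2.09 (SE 0.142) and from uninjected embryos of 1.94 (SE 0.142). Of the 5 members of the multisynthetase complex, the arginyl enzyme rars1 gave 2340 and 2210 in ERbeta2 MO, 572 and 648 in coMO and 469 and 496 in uninjected embryos. Both coMO arrays were slightly above both uninjected arrays, so its difference was 1.87 (SE 0.142) from coMO and 2.20 (SE 0.142) from uninjected embryos.

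The bifunctional glutamyl-prolyl enzyme eprs1, which carries a class I and a class II catalytic part in 1 chain, gave 7317 and 6845 in ERbeta2 MO, 2030 and 1850 in coMO and 1629 and 1852 in uninjected embryos. It was 1.86 (SE 0.126) above coMO and 2.02 (SE 0.126) above uninjected embryos. The glutaminyl enzyme qars1 gave 2088 and 2501, against 775 and 736 in coMO and 705 and 689 in uninjected embryos, a difference of 1.58 (SE 0.141) from coMO. Its replicate arrays differed more in ERbeta2 MO than in either control. The methionyl enzyme mars1, which also charges the initiator tRNA, gave 715 and 847, against 251 and 375 in coMO and 296 and 346 in uninjected embryos, a difference of 1.30 (SE 0.186) from coMO. Its coMO arrays enclosed both uninjected arrays. The lysyl enzyme kars1, the last of these 5, differed from coMO by 1.15.

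Thus the 5 complex members stood 1.15 to 1.87 above coMO, at a median of 1.58. The other 5 cytosolic synthetases stood 0.58 to 2.09 above it, at a median of 0.88, and the ranges overlap, with yars1 inside that of the complex and farsla above it. By catalytic class, the 8 class I enzymes other than eprs1 had a median of 1.03 and a range of 0.58 to 1.87, and the 3 class II enzymes a median of 1.15 and a range of 0.83 to 2.09, so the classes lay over one another.

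**Figure D1:**
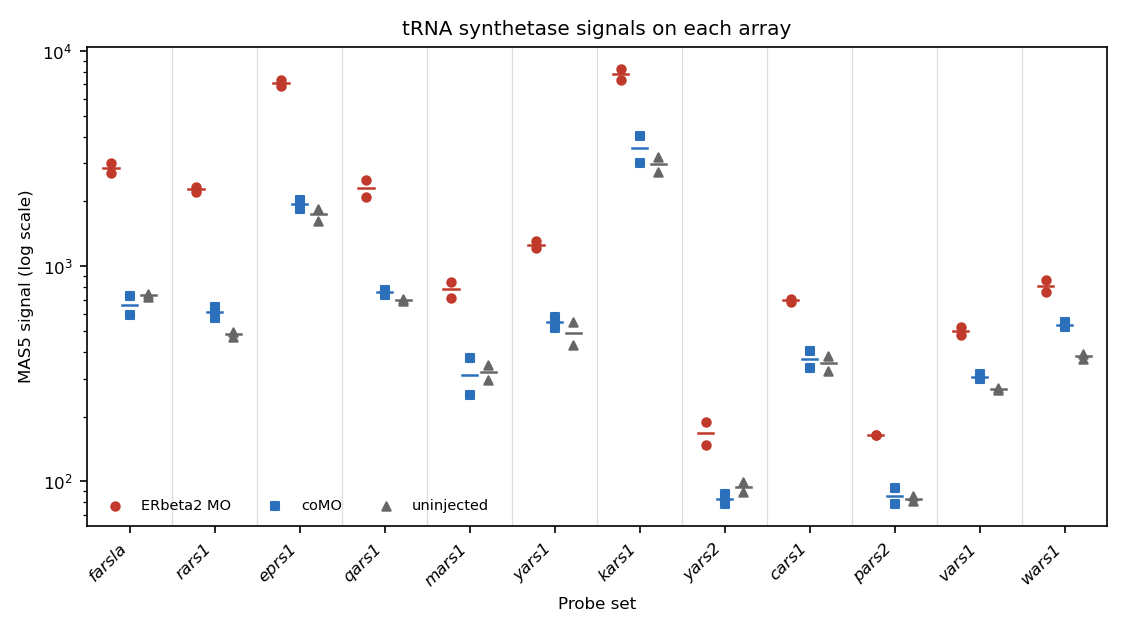
MAS5 signal (log axis) of the 12 synthetase probe sets on each of the 6 arrays, 2 arrays a group, with a short line at the group mean. Both ERbeta2 MO arrays lie above all 4 control arrays for all 12, from farsla (2709 and 3013 in ERbeta2 MO) to wars1 (859 and 757).

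The remaining cytosolic synthetases were the tyrosyl enzyme yars1 at 1.17 above coMO, the cysteinyl enzyme cars1 at 0.88, the valyl enzyme vars1 at 0.67 and the tryptophanyl enzyme wars1 at 0.58. vars1 gave 519 and 477 in ERbeta2 MO, 299 and 315 in coMO and 272 and 266 in uninjected embryos. wars1, whose human counterpart is induced by interferon, gave 859 and 757 in ERbeta2 MO, 519 and 549 in coMO and 391 and 371 in uninjected embryos. The 3 groups of wars1 did not overlap, and its difference from uninjected embryos, 1.05 (SE 0.153), stood beside 0.58 (SE 0.153) from coMO. The mitochondrial synthetases yars2 and pars2 were dim and fell below the filter that removed the 40% of probe sets with the lowest mean. yars2 gave 147 and 189 in ERbeta2 MO, 87 and 78.8 in coMO and 89.2 and 99.4 in uninjected embryos, and pars2 gave 164 on both ERbeta2 MO arrays, 78.2 and 93.3 in coMO and 81 and 85.6 in uninjected embryos. With no filter they stood 0.89 (SE 0.237) and 0.83 (SE 0.233) above coMO.

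Among the initiation factors eif6, which keeps the large ribosomal subunit from joining the small one too early, differed most. It gave 2683 and 2364 in ERbeta2 MO, 684 and 738 in coMO and 711 and 642 in uninjected embryos. The controls overlapped, and the difference was 1.80 (SE 0.140) from coMO and 1.87 (SE 0.140) from uninjected embryos. All 3 listed subunits of the exchange factor eIF2B were higher. Its alpha subunit eif2b1 gave 1516 and 1570, against 474 and 602 in coMO and 512 and 593 in uninjected embryos, a difference of 1.50 (SE 0.154) from coMO. The delta subunit eif2b4 and the gamma subunit eif2b3 stood at 1.10 and 1.08. The kinase eif2ak1, which is regulated by heme and in mammals phosphorylates eIF2 and so blocks the exchange by eIF2B, gave 546 and 429 in ERbeta2 MO, 280.4 and 296 in coMO and 363 and 234 in uninjected embryos. Its uninjected arrays were spread around the coMO arrays, and its difference from coMO was 0.72 (SE 0.196).

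The factors that bind the mRNA cap and unwind the mRNA leader were mixed. The cap-binding eIF4E homologue eif4e1c has 2 probe sets. The first gave 1410 and 1301 in ERbeta2 MO, 494 and 473 in coMO and 459 and 434 in uninjected embryos, a difference from coMO of 1.46 (SE 0.146). The second gave 1276 and 1170, against 585 and 801 in coMO and 512 and 549.7 in uninjected embryos, a smaller difference of 0.82 (SE 0.159). Against uninjected embryos the probe sets stood at 1.57 and 1.18, so they differ less there, and the second has the wider spread of coMO arrays.

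The scaffold eif4g1a, which bridges the cap-binding protein and the small subunit, gave 1916 and 2172 in ERbeta2 MO, 709 and 762 in coMO and 749 and 733 in uninjected embryos, a difference of 1.45 (SE 0.139) from coMO. Its relative eif4g2a stood at 1.34 and eif4bb, which stimulates the helicase, at 1.04. The helicase eif4a1a had the smallest difference of all members, with 636 and 838 in ERbeta2 MO, 567 and 572 in coMO and 465 and 492 in uninjected embryos. It was 0.35 (SE 0.160) above coMO and 0.59 (SE 0.160) above uninjected embryos. eif4e3, another member of the cap-binding family, went the other way, with 52.4 and 67.5 in ERbeta2 MO, 147 and 172 in coMO and 172 and 188 in uninjected embryos. It too fell below the filter, and with no filter it stood at -1.22 (SE 0.230) against coMO and at -1.37 (SE 0.230) against uninjected embryos.

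The other initiation factors act around the small subunit and the initiator tRNA. The eIF3 subunit eif3c gave 5416 and 5372 in ERbeta2 MO, 1906 and 2126 in coMO and 1489 and 1794 in uninjected embryos, a difference of 1.41 (SE 0.130) from coMO and 1.71 (SE 0.130) from uninjected embryos. The loosely bound eIF3 subunit eif3ja stood at 1.14 against coMO. So did eif2d, which can place tRNA on the small subunit independently of eIF2. The start codon selection factor eif1b stood at 1.10, and eif2a, which is not a subunit of eIF2, at 0.89. eif5, which makes eIF2 hydrolyse its GTP, gave 3828 and 3704, against 2215 and 2371 in coMO and 1974 and 1971 in uninjected embryos, a difference of 0.71 (SE 0.123) from coMO with 3 groups that did not overlap.

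**Figure D2:**
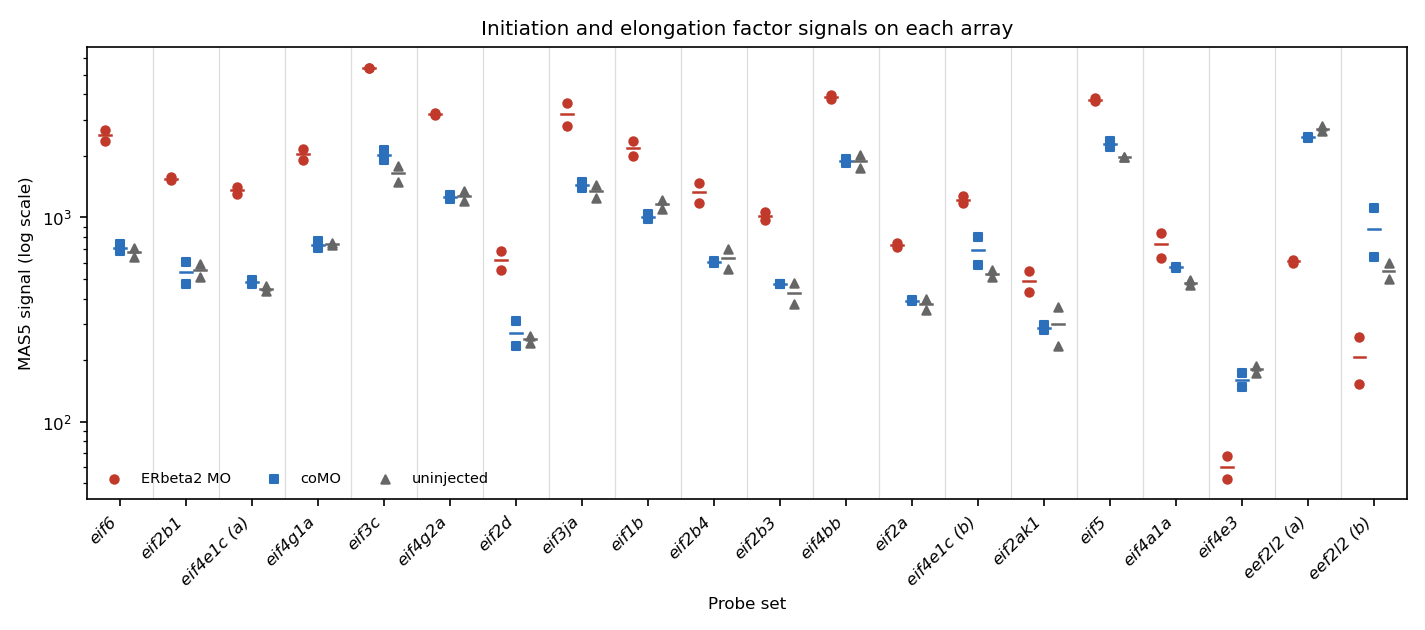
MAS5 signal (log axis) of the 18 initiation factor and 2 elongation factor probe sets on each of the 6 arrays, with a short line at the group mean; (a) and (b) mark the first and second probe set of eif4e1c and eef2l2. The ERbeta2 MO arrays are the highest for 17 initiation factor probe sets and the lowest for eif4e3 and both probe sets of eef2l2.

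The only elongation factor gene, eef2l2, is named as like eEF2, the GTPase that moves the ribosome by 1 codon. Its first probe set gave 621 and 596 in ERbeta2 MO, 2447 and 2478 in coMO and 2642 and 2807 in uninjected embryos, a difference of -1.99 (SE 0.129) from coMO and -2.13 (SE 0.129) from uninjected embryos. Its second probe set, whose suffix marks probes shared with other sequences, gave 152 and 259.6 in ERbeta2 MO, 1112 and 638 in coMO and 497 and 598 in uninjected embryos. Its difference was -2.00 (SE 0.229) from coMO and -1.38 (SE 0.229) from uninjected embryos. Both probe sets were lower in ERbeta2 MO than in either control, and the second had the largest gap between replicate arrays of all members, 1.74-fold in coMO and 1.71-fold in ERbeta2 MO. Over the 32 probe sets the brighter replicate array exceeded the dimmer by a median of 1.10-fold for ERbeta2 MO, 1.08-fold for coMO and 1.11-fold for uninjected embryos.

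**Figure D3:**
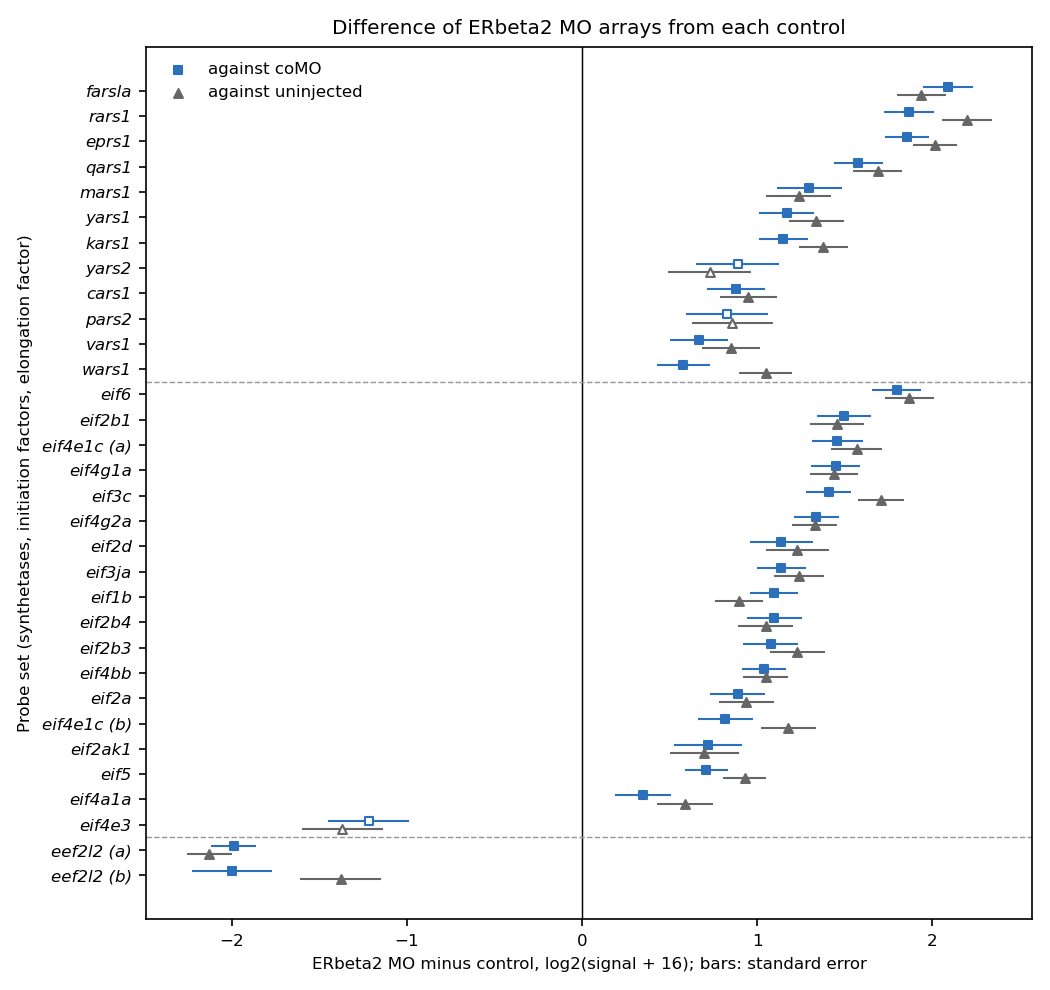
Difference of ERbeta2 MO from coMO (squares) and from uninjected embryos (triangles) for the 32 probe sets, on the log2(signal + 16) scale with the standard error; open symbols are the 3 probe sets below the filter, given from the fit with no filter. The 2 columns share the ERbeta2 MO arrays, and values run from -2.13 for eef2l2 to 2.20 for rars1.

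Of the 32 members 29 passed the filter. limma, which fits a linear model to each probe set and pools the spread between them, called 28 of these 29 against coMO at an adjusted p of 0.05, 26 higher and 2 lower, where 56.2% of all 9302 probe sets were called, 29.5% higher and 26.8% lower. Against uninjected embryos all 29 were called, 27 higher and 2 lower, where 56.9% of all were, 30.4% higher and 26.5% lower. The member not called against coMO was eif4a1a. Because the rule used these contrasts, nothing is read from these counts. The arrays of ERbeta2 MO and coMO did not overlap for any of the 32 members, nor did those of ERbeta2 MO and uninjected embryos, and among all probe sets tested this was so for 78.7% and 78.9%. Of the 2666 probe sets in the authors' deposited table of ERbeta2 MO over coMO 49.8% had a fold above 1, and of the 29 members in it 26 had. These folds chose the members, so nothing is read from this count either.

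In the authors' deposited table of ERbeta2 MO over coMO the members' folds ran from 0.208 for eef2l2 to 6.00 for farsla, and in the authors' deposited table of ERbeta2 MO over uninjected from 0.190 for eef2l2 to 5.19 for farsla. All 59 listed folds had the direction of the ratio of mean signals. The listed fold was farther from 1 than this ratio for 24 of 29 members against coMO and for 27 of 30 against uninjected embryos. Of the members listed above 1, 6 against coMO and 7 against uninjected embryos had a ratio of mean signals under 2. Just inside the bound, the authors' deposited tables give eif2ak1 2.03 over coMO, and over uninjected embryos pars2 2.04, eif4a1a 2.04 and eif5 2.05. The members that 1 table leaves out have no fold of the authors there, so only ratios of mean signals can be given. Over coMO these were 1.92 for pars2, 1.64 for eif5 and 1.29 for eif4a1a, and over uninjected embryos 1.85 for vars1 and 1.63 for eif2ak1.

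Injection of the control morpholino could be compared with no injection on a contrast through which no member was listed. The signals of both control groups still entered the folds that listed the members. No conclusion is therefore drawn from how many members differ here or in which direction. limma called 0 of the 29 tested members, at adjusted p from 0.283 to 0.997, where 0.505% of all 9302 probe sets were called. An unadjusted limma p below 0.05 was found for 5 of the 29, beside 7.89% of all. All 5 were higher in coMO. That count depended on the scaling. It was 5 with quantile normalization, 2 with median centring, 1 with hybridization control scaling and 0 with poly-A scaling. The median of the 29 was 0.10 as deposited and -0.19 with poly-A scaling, where that of all probe sets tested was -0.29. The differences of coMO from uninjected embryos ran from -0.20 to 0.61 over the 32 probe sets, at a median of 0.08, with 21 above 0 and 11 below, beside a median of 0.00 for all probe sets tested. wars1 had the smallest p, at a difference of 0.47 with a 95% interval of 0.15 to 0.79 (limma adjusted p = 0.283), and both coMO arrays lay above both uninjected arrays. The other 4 were rars1 at 0.33 (0.03 to 0.62), eif3c at 0.30 (0.03 to 0.57), the second eif4e1c probe set at 0.36 (0.03 to 0.69) and the second eef2l2 probe set at 0.61 (0.14 to 1.09). These 4 too had both coMO arrays above both uninjected arrays. The first eef2l2 probe set went the other way, at -0.14 (-0.41 to 0.12), with both coMO arrays below both uninjected arrays. The first eif4e1c probe set stood at 0.11 (-0.19 to 0.42). The arrays of the control groups did not overlap for 10 members with coMO higher and 3 with coMO lower, 13 of 32 in all, where 34.3% of all probe sets tested did not overlap. The interval of the difference between the controls held the difference of ERbeta2 MO from coMO for 2 of the 32 probe sets, wars1 and eif4a1a (-0.09 to 0.58). It did not for the other 30. The members were listed for their differences in ERbeta2 MO, and both differences use the coMO arrays, so nothing is read from this count.

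**Figure D4:**
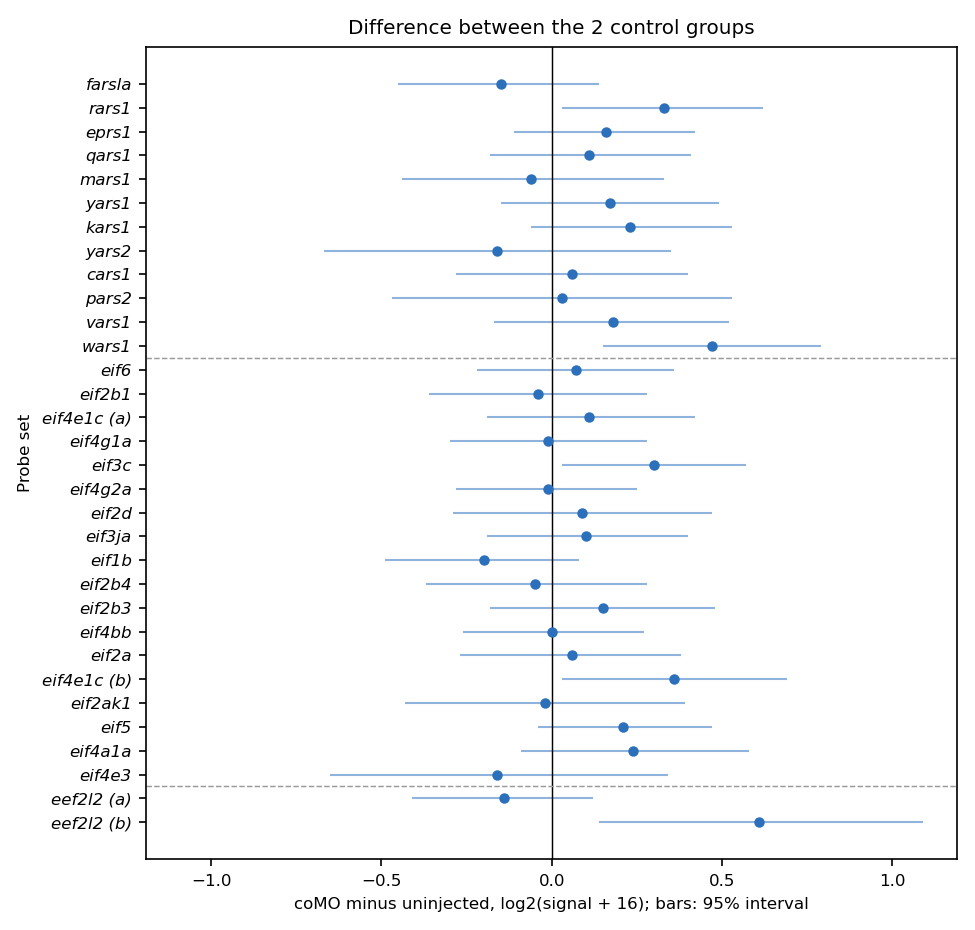
Difference of coMO from uninjected embryos for the 32 probe sets on the log2(signal + 16) scale, with the 95% interval of the limma fit. The points lie between -0.20 for eif1b and 0.61 for the second eef2l2 probe set, and 0 of 29 tested members passed an adjusted p of 0.05.

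Array by array, the synthetases stood at a median of 1.16 and 1.33 above their mean over the 4 control arrays on the 2 ERbeta2 MO arrays, at 0.06 and 0.12 on the coMO arrays and at -0.11 and 0.02 on the uninjected arrays. The initiation factors stood at 1.08 and 1.15, at -0.02 and 0.04, and at -0.05 and -0.04. In these 2 classes the medians of both ERbeta2 MO arrays were higher, and those of the 4 control arrays lay close to each other. The members were chosen by this difference, so this is a description only.

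How large the differences were depended on the scaling of the arrays. Against coMO the median of the 29 members tested was 1.14 as deposited, 1.10 with quantile normalization, 1.30 with each array centred on its median, 1.59 when the hybridization controls set the scale, and 2.07 when the poly-A spikes, RNAs added before labelling, set the scale. The median of all probe sets tested moved with it, from 0.05 to 0.06, 0.21, 0.50 and 0.98. Under each of these scalings the 29 members tested kept their direction against both controls. This included eef2l2, which with the poly-A spikes stood at -1.06 for either probe set against coMO. yars2, pars2 and eif4e3, below the filter, were not fitted under the other scalings. eif4a1a, not called as deposited, stood at 1.28 with that scaling and was called. With that scaling 74% of all probe sets tested were called against coMO, beside 56.2% as deposited, so nothing is read from this call.

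**Figure D5:**
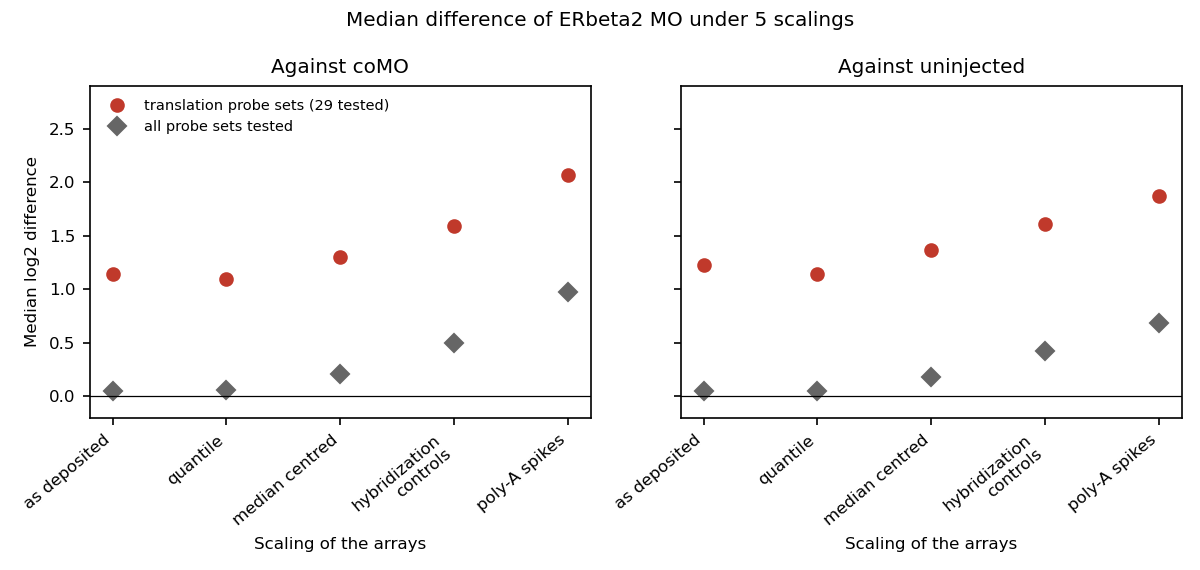
Median log2 difference of ERbeta2 MO under 5 scalings, for the 29 members tested (circles) and for all probe sets tested (diamonds). Against coMO the members go from 1.14 to 2.07 and all probe sets from 0.05 to 0.98 between the deposited and the poly-A scaling.

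The RNA and the tissues differed between the same arrays. The ratio of 3' to 5' signal of GAPDH, a measure of RNA integrity, reached 2.14 and 2.15 on the ERbeta2 MO arrays, against 1.66 and 1.34 for coMO and 1.47 and 1.35 for uninjected embryos. Markers of photoreceptors, exocrine pancreas, liver, intestine, muscle, red blood cells, neurons and cartilage all gave signal in the controls. They are named only where the authors' deposited tables list them, so their differences are selected, and nothing is read from how many differ. In ERbeta2 MO all 3 photoreceptor probe sets were lower, with a summed signal of 275 to 298 against 47516 to 60402 in the 4 control arrays, as were all 3 of exocrine pancreas (291 to 305 against 16580 to 19163), all 3 of liver (6331 to 6461 against 28135 to 32455) and both of intestine (41 to 48.4 against 2402 to 2769). All 3 red blood cell probe sets were higher (10370 to 11422 against 2369 to 3144). Both cartilage probe sets were lower (3829 to 3908 against 16761 to 19269), matn1 at -4.71 against coMO and col9a2 at -0.74, which turned to 0.19 with the poly-A scaling. The muscle probe sets were split, with ttn.2 at 1.59 and ckmt2a at -3.99, and their sum of 16615 to 18200 against 8407 to 9269 was mostly ttn.2. Of the 4 neuron probe sets elavl3 stood at 1.09 and the other 3 were lower. All 4 together summed to 6802 to 7029 against 11555 to 12310. With the poly-A scaling snap25a went from -0.75 to 0.18, and the syt1a probe sets from -0.99 to -0.06 and from -1.52 to -0.58. Of 12 genes of dividing cells 4 were listed (top2a, mcm3, mcm6 and mki67). All 5 of their probe sets were lower, summing to 218 to 251 against 736 to 932. Only 1 of the 5 passed the filter, and it was called lower against coMO, where 26.8% of all probe sets tested were. No marker was at 0, though this does not show that each was detected. fabp10a gave 21.3 and 12 in ERbeta2 MO, and hbbe3 gave 14.4 to 43.3 on the control arrays, near the offset of 16. The size of their differences therefore depends on the offset. The part of RNA quality and of tissue makeup in the difference of the translation genes was not tested.

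Other genes of protein synthesis are named only where the same tables list them, so their directions are selected too, and the lists were drawn up with earlier results of these data known. For each, limma's calls against coMO are set beside the 29.5% of all probe sets called higher and 26.8% called lower, and nothing is read from them. Of 18 genes that hold the multisynthetase complex together or act in mitochondrial translation, 2 were listed, both scaffold proteins of the complex, and both were called higher, aimp2 at 1.26 and aimp1a at 1.10. Of the mitochondrial ribosomal proteins 10 were listed and 9 tested, and all 9 were called higher. Among these were mrpl42 at 1.16, mrps15 at 1.14 and mrpl27 at 1.12, and the median of the 10 was 0.98. For cytosolic ribosomal proteins 0 were listed.

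Of 112 genes of tRNA transcription, processing and modification 25 were listed and 19 tested, of which 18 were called higher, 0 lower and 1 neither. The methyltransferase trmt1 stood at 1.71, with 469 and 503 in ERbeta2 MO, 126 and 149.8 in coMO and 109.5 and 111 in uninjected embryos. The queuine tRNA transferase subunit qtrt2 stood at 1.57 and polr3e, a subunit of the polymerase that makes tRNAs, at 1.47. bdp1, part of that polymerase's initiation factor, had the largest difference, 2.26, with signals of 4.17 to 11.2 on the control arrays, below the offset of 16, and 47.3 and 144 in ERbeta2 MO, so its size depends on the offset. All 25 had both ERbeta2 MO arrays above both coMO arrays, where the arrays of 78.7% of all probe sets tested did not overlap in either direction. The 25 were selected by the listing, so nothing is read from this.

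Of 59 genes of termination, recycling and regulated translation 16 were listed and tested, of which 13 were called higher, 2 lower and 1 neither. The ribosome-associated ATPase abcf1 stood at 1.97, with 6662 and 7640 in ERbeta2 MO, 1845 and 1783 in coMO and 1614 and 1882 in uninjected embryos, and the nuclear poly(A) binding protein pabpn1 at 1.59. The 2 called lower were the cytoplasmic poly(A) binding protein pabpc1a at -1.79, with 1427 and 1278 against 4253 and 5188 in coMO and 4356 and 4290 in uninjected embryos, and pdcd4a, which in mammals inhibits the helicase eIF4A, at -1.74. Both kept their direction with the poly-A scaling, at -0.85 and -0.81.

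Of 56 genes of the amino acid and integrated stress response, the program in which eIF2 phosphorylation favours translation of the transcription factor ATF4 and which in mammals induces synthetase genes, 8 were listed and tested. Of these 7 were called higher and 1 lower, at a median of 1.41. The transcription factors atf3, atf5b, atf4a and cebpb stood at 2.57, 2.48, 1.96 and 1.44. atf4a gave 8495 and 8925 in ERbeta2 MO, 2064 and 2393 in coMO and 1778 and 1962 in uninjected embryos. The 1 called lower was slc38a4, an amino acid transporter, at -0.95, named after its value was seen. With the poly-A scaling it stood at -0.02. Between coMO and uninjected embryos limma called 0 of the 54 probe sets tested over these lists, and 3 had an unadjusted p below 0.05, beside the 7.89% of all.

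The 5 probe sets assigned to several genes were also brighter on both ERbeta2 MO arrays than on all control arrays. They too were taken from the authors' deposited tables, and for 78.7% of all probe sets tested the arrays of ERbeta2 MO and coMO did not overlap. The 1 that the tables assign to yars and 2 further loci gave 3268 and 2925 in ERbeta2 MO, 1089 and 792 in coMO and 668 and 704 in uninjected embryos, and stood 1.72 above coMO, more than the probe set of yars1 alone. That of eif4a1a and another locus stood at 1.01, against 0.35 for the probe set of eif4a1a alone, with signals of 7217 and 6455 in ERbeta2 MO and 3215 and 3566 in coMO. Which of the assigned genes such a probe set measures cannot be told apart.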

How the data were processed

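The deposited value table holds 1 linear intensity for each probe set and array, and the submitters' processing notes name MAS5, with no version or settings. The 2% trimmed mean is 500 on every array, so the deposited values are scaled per array. Per the file headers the 3 deposited tables hold fold change values, a linear ratio between groups, and none lies between 0.5 and 2. Their computation is not given in the sources used here. Columns of values with no sample numbered 0.

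Symbols were taken by GeneID from a RefSeq gene table (31 of 32 members) or kept as written (farsla). Signals were taken as log2(signal + 16). After removal of 115 control probe sets, those in the lowest 40% by mean log2 value were dropped, leaving 9302. All 6 arrays entered 1 limma model (version 3.58.1, R 4.3.3; lmFit and trended eBayes) without a replicate block, with 3 residual degrees of freedom and Benjamini-Hochberg adjustment over 9302. The number of arrays limits the precision. The poly-A scaling used the dap, lys, phe and thr spikes. The fit was also run on simulated data in which few probe sets differed between groups, unlike in these data. Nothing is drawn from that run.

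Members, lists and tests were chosen with earlier results of these data known. Signals on all arrays are given for the 5 largest and 2 smallest differences of each class, for members against the direction of their class and for genes with 2 probe sets. For this choice of signals the kinase eif2ak1 formed a class of its own, while all counts and medians include it among the initiation factors. The signals of yars2 and pars2 were added after their values were seen. All others are named with their difference, and of each other list up to 4 members by size of difference. The planned motif search was not run, and no sequences are printed.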

Additional observations from a re-analysis of the deposited data

How the results depend on the processing

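The count of members called stayed within 1.5 times that reported in 10 other settings. These were offsets of 1 and 64, no filter, the lowest 60% left out, 4 scalings, eBayes without a trend and the replicate block. Against coMO, reported as 28, the count was 28 to 31. Against uninjected embryos, reported as 29, it was 29 to 32, and between the controls it was 0 in all 10. Each array was also left out in turn, which makes 16 alternatives. Counts are not given for those fits, since they leave 1 group with 1 array. With no filter 32 members were tested. Over the 10 other settings the share of all probe sets called moved too. Against coMO it ran from 40.9% with no filter to 74% with poly-A scaling. Against uninjected embryos it ran from 39.7% with no filter to 61.7% with the lowest 60% left out. Between the controls it ran from 0.118% with eBayes without a trend to 0.989% with the replicate block. The rule used both contrasts of ERbeta2 MO, so nothing is read from the counts of members called in them. A group left with 1 array is assumed to vary like the others. Without ERbeta2 MO replicate 1, wars1 (0.49) and eif2ak1 (0.55) were no longer called against coMO. Against uninjected embryos eif2ak1, at 0.70, was not called without that array (0.53) or without uninjected replicate 2 (0.40), nor eif4a1a without ERbeta2 MO replicate 2 (0.40). Against coMO eif4a1a was called in 4 of 17 settings, at 0.16 to 1.28. Of 464 member values against each control, 351 and 356 moved by less than the residual spread of the probe set, and 0 changed direction. A larger move was found for 113 and 108, of which 79 and 73 came from median, hybridization control and poly-A scaling. Changes of the filter, of eBayes or of the block, and leaving out an array of the third group, could not move a difference. Nothing is therefore read from how many values stayed. The list of tRNA genes had 7 called with the lowest 60% left out, fewer being tested there, against 18. Across probe sets, same-numbered arrays deviated together at r = 0.0156 for ERbeta2 MO and coMO and 0.0134 for ERbeta2 MO and uninjected embryos. For coMO and uninjected embryos r was 0.118. With the replicate block 28 and 29 members were called, as without it. The share of all probe sets called rose from 56.2% to 58% against coMO and from 56.9% to 59.1% against uninjected embryos. Between the controls it rose from 0.505% to 0.989%. Whether the arrays were paired by number cannot be told from these values.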
